A study of Mus musculus with 3 samples.

Results

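Mature smooth muscle of the mouse lung wraps the airways and the walls of arteries and veins, and it is told from other stromal cells by the RNA of its contractile proteins. Cells were taken as smooth muscle by the UMIs (unique molecular identifiers, 1 for each captured RNA molecule) of 8 genes: at least 5 of Myh11 and 10 of Acta2, at most 2 of Aspn and 2 of Higd1b and Cox4i2 together, and 0 of Ptprc, Cdh5 and Epcam. This left 135 of the 7642 cells that had 200 or more detected genes and mitochondrial UMIs of 20% or less, themselves from 9644 deposited cells. The markers of the label hold for the pool but not for every cell in it. Of the 135 cells, 53 held at least 1 UMI of Pdgfra, a receptor gene of fibroblasts and myofibroblasts, and these cells had lower levels of the contractile genes and of Notch3 than the rest of the pool. The pool is therefore called here by its rule, the Myh11/Acta2 cells, and the name smooth muscle holds for it in part.

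Smooth muscle shortens when myosin filaments, built from the heavy chain Myh11, pull on actin filaments built from Acta2 and Actg2. Calcium entering through channels or released from stores starts the contraction by way of myosin light chain kinase, and potassium channels and cyclic nucleotides end it. Serum response factor and its partner myocardin switch on many of these genes through a short DNA motif, the CArG box. In vessel walls the Notch3 receptor marks mural cells, the family of smooth muscle cells and pericytes, while the cells around airways and alveolar ducts are known for Hhip, an inhibitor of Hedgehog ligands, and Lgr6. Lungs at postnatal day 14 (P14) are still dividing their air sacs, and alveolar myofibroblasts, which carry Pdgfra, are contractile for a time.

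The scRNA-Seq data came from the whole lungs of 3 wild-type C57BL/6 pups, numbered 2, 3 and 4, that had been kept in room air from day 1 to day 14 of life and were taken at P14. There was 1 library for each mouse and 1 condition, so that every value below describes normal lung of this age and every comparison is between cells of the same animals. The Myh11/Acta2 cells numbered 49 of 2386, 31 of 2601 and 55 of 2655 filtered cells in mice 2, 3 and 4. Their share was 2.05% (exact 95% binomial interval 1.52 to 2.71), 1.19% (0.811 to 1.69) and 2.07% (1.56 to 2.69), a mean of 1.77% ± 0.503 (SD, n = 3), and these intervals cover counting error only. Mouse 3 had the lowest share, and its interval overlapped those of the other mice at its upper end. Immune cells, with at least 2 Ptprc UMIs and no collagen UMI, numbered 538, 1141 and 706 of the filtered cells in mice 2, 3 and 4. Their part in the lower share of mouse 3 was not tested. The cells held a median of 11994 UMIs and 3881 genes, against 6033.5 UMIs and 2340.5 genes over all filtered cells. None of the 135 was among the 200 filtered cells marked as likely doublets, and none of their barcodes occurred in another library, although the libraries shared 5, 2 and 5 barcodes in pairs. Levels are given below in counts per 1000000 (CPM), the sum of a gene's UMIs over the cells of a group in 1 mouse, scaled by all UMIs of those cells.

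Because Myh11 (mm10, chr16:14194535-14291372) and Acta2 (chr19:34241090-34255590) chose the cells, their values are a description. Acta2 stood at 7373, 8515 and 8422 CPM in the Myh11/Acta2 cells of mice 2, 3 and 4, and Myh11 at 2673, 2677 and 2778. In single cells Myh11 ran from 5 to 223 UMIs with a median of 22, and Acta2 from 10 to 651 with a median of 63. Of 415 filtered cells that met the Myh11 and Acta2 minimum, 157 were within the limit on Aspn, a gene used as a marker of myofibroblasts. The limits on pericyte genes, Ptprc, Cdh5 and Epcam then took the number from 157 to 143, 140, 138 and 135. The plot of Myh11 against Acta2 shows that no gap in either gene separated the chosen cells from the rest.

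**Figure D1:**
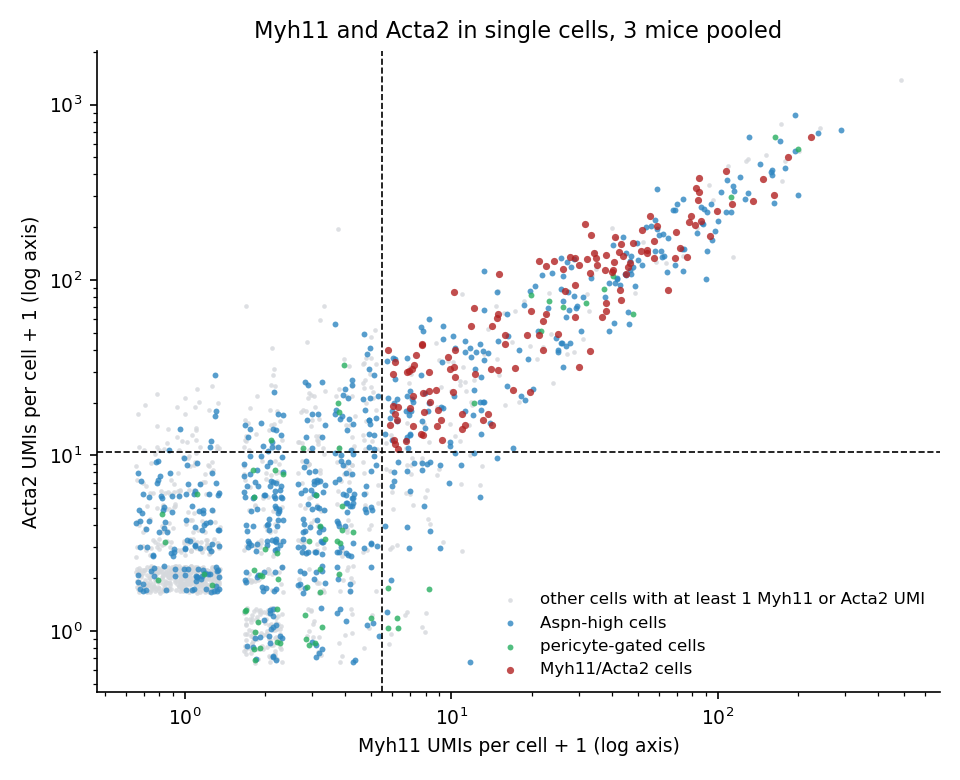
UMIs of Myh11 (x axis) and Acta2 (y axis) in single cells of the 3 mice, both plus 1, jittered and on log axes, for cells with at least 1 UMI of either gene, with red points for Myh11/Acta2 cells, blue for Aspn-high, green for pericyte-gated and grey for other cells. Dashed lines mark the minima of 5 and 10 UMIs, and the colors run into each other on both sides of the lines.

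Values just inside and just outside each minimum are given as a description. The 20 cells with 5 or 6 Myh11 UMIs held 1264 CPM of Tagln and 90.0 of Actg2, and the 30 cells with 3 or 4 Myh11 UMIs that met the rest of the rule held 1265 and 94.2. Both sets were rich in Pdgfra, at 1349.85 and 1203 CPM, and poor in Notch3, at 38.6 and 31.4. At the Acta2 minimum the 13 cells inside, with 10 to 14 Acta2 UMIs, held 1083 CPM of Tagln and 75.8 of Actg2, and the 11 cells outside, with 6 to 9, held 697 and 22.7. The cells inside and outside were thus close in these genes at the Myh11 minimum, and the cells inside were higher at the Acta2 minimum. At the Aspn limit the 55 cells inside with 1 or 2 Aspn UMIs held 3779 CPM of Tagln and 337 of Pdgfra, whereas the 38 cells outside with 3 or 4 held 5069 and 64.0. The cells just outside the Aspn limit thus had the higher level of Tagln and the lower level of Pdgfra.

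Inside the pool, Notch3 (chr17:32120820-32166852) and Pdgfra (chr5:75152292-75198215) were rarely found in the same cell. Notch3 alone was found in 73 of the 135 cells, Pdgfra alone in 45, both in 8 and neither in 9. The split was present in each mouse: 26, 20 and 27 cells with Notch3 alone and 14, 10 and 21 with Pdgfra alone in mice 2, 3 and 4. Cells with both numbered 4, 0 and 4. Immune cells, which should lack both genes, had a Notch3 UMI in 0.474% ± 0.0731 of cells and a Pdgfra UMI in 0.27% ± 0.236 (SD, n = 3 mice) at a median of 4135 UMIs per cell, far below the 60.7% ± 4.10 and 38.1% ± 6.71 in the Myh11/Acta2 cells. When each cell was thinned to 2000 UMIs, the shares became 33.2% ± 5.40 for Notch3 and 31.1% ± 6.02 for Pdgfra in the Myh11/Acta2 cells and 0.238% ± 0.0338 and 0.136% ± 0.122 in immune cells, with 2 and 190 shallower cells left out.

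**Figure D2:**
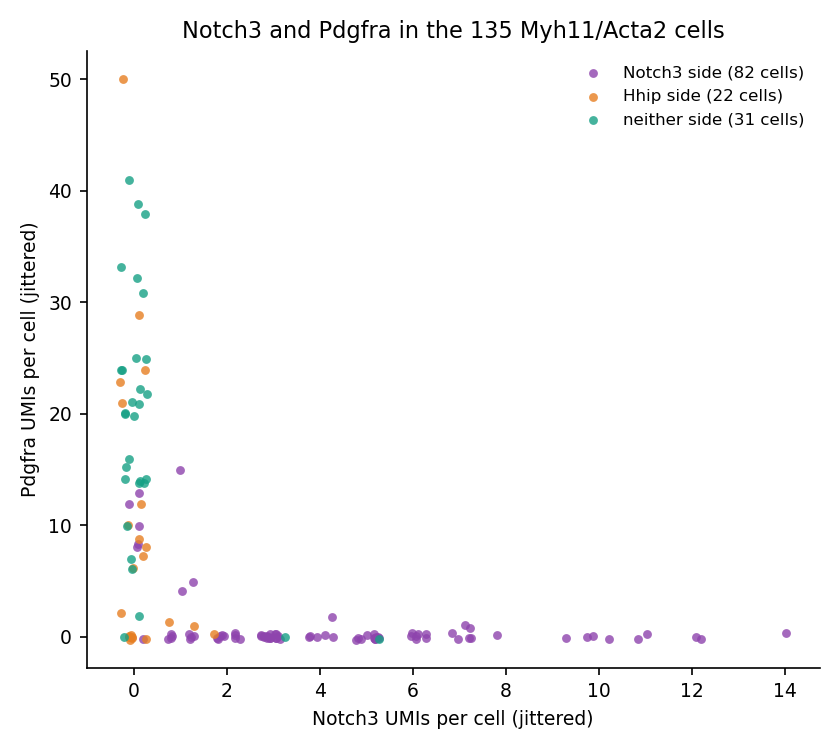
Notch3 UMIs (x axis) and Pdgfra UMIs (y axis) in each of the 135 Myh11/Acta2 cells, jittered, colored by the side on which the sum of Notch3, Heyl and Gja4 UMIs or of Hhip and Lgr6 UMIs was larger. Most cells lie along 1 of the axes, and the 31 cells on neither side lie mainly along the Pdgfra axis.

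Contractile RNA was higher in the 82 cells without a Pdgfra UMI. Summed over the 31 genes of the contractile list, the 53 cells with one stood at a mean of 19189 ± 2804 CPM. The 82 cells without one stood at 51336 ± 3362. The sum was 20338 ± 1652 in Aspn-high cells and 16558 ± 1228 in other collagen-positive cells. In the 188 Aspn-high cells that met the Myh11 and Acta2 minimum it was 43006 ± 5427, and in the whole pool 37794 ± 1329. Myh11 and Acta2, which chose the pool, are part of these sums, so the sums are a description. Acta2, a gene of the rule, stood at 10641, 11916 and 13387 CPM in the 82 cells without a Pdgfra UMI of mice 2, 3 and 4. It stood at 3553, 2176 and 2593 in the 53 cells with one, and these values are a description. Tagln, which encodes the actin-binding protein transgelin, stood at 5066, 5353 and 5181 against 2238, 1469.9 and 1649.9. Neither gene's values overlapped between the kinds of cell. Lmod1, whose protein leiomodin starts new actin filaments, stood at 823, 746 and 838 against 193, 28.8 and 86.5, and Cnn1, the actin-binding calponin, at 513, 642 and 673 against 88.9, 21.6 and 60.6. Integrin alpha 8, encoded by Itga8, was at 1088, 1109 and 1489 against 193, 0 and 216, and the transcription factor Gata6 at 311, 294 and 339 against 15.5, 0 and 40.4. In mouse 3 the 10 Pdgfra-bearing cells held no UMI of Notch3, Itga8 or Gata6 at all.

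The Pdgfra-bearing cells in turn held more of other RNAs, some of which were at or near 0 in the rest of the pool. Tgfbi, a matrix protein induced by TGF-β, stood at 2354, 2759.6 and 2261 CPM against 6.61, 0 and 0, and Agt, which encodes angiotensinogen, at 862, 944 and 704 against 0 in every mouse. Wnt5a, a Wnt ligand, was at 491, 807 and 542 against 23.1, 3.87 and 0. Ltbp2, a protein of elastic fibers, was at 2184, 2997 and 2587 against 76.1, 61.8 and 46.7, and Cd34, a surface protein of many fibroblasts, at 510.3, 584 and 632 against 3.31, 0 and 4.91. Pde5a, the phosphodiesterase that breaks down cyclic GMP, stood at 1686, 1823 and 1725 against 238, 178 and 283. Elastin RNA was abundant in both, with Eln at 28264, 26328 and 25934 in cells with Pdgfra and 39011, 33742 and 34387 in cells without. The Pdgfra-bearing cells were deeper, with a median of 13180 against 10501 UMIs, and had less mitochondrial RNA, with a median of 5.81% against 7.79%. The 10 immediate early and heat shock genes, which dissociation can raise, summed to 630.1, 757 and 1269 CPM in cells with Pdgfra and 1858, 1832 and 1813 in cells without, with no overlap, and their part in the contrast was not tested. These kinds were defined after the values were seen, so no test was made between them, and a cell without a Pdgfra UMI may still hold Pdgfra RNA that was not captured.

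**Figure D3:**
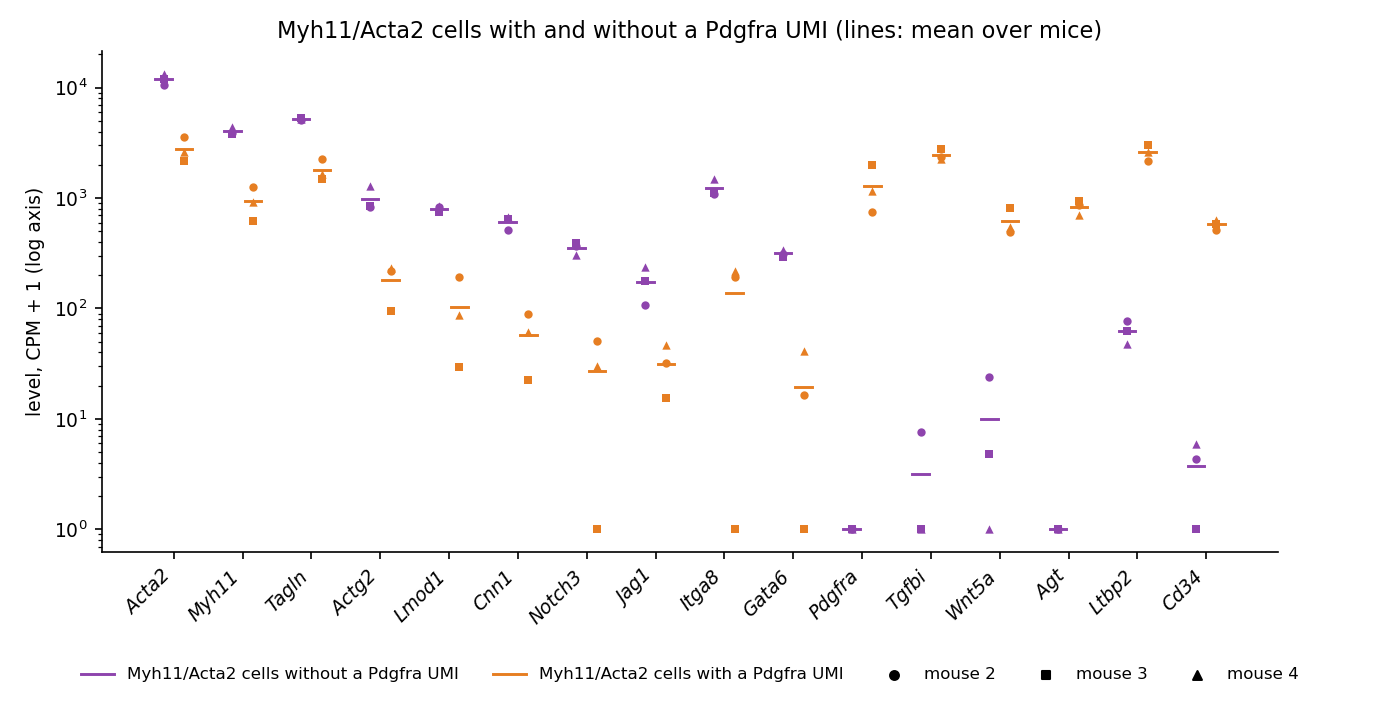
Levels of 16 genes (y axis, CPM plus 1, log axis) in Myh11/Acta2 cells without (purple) and with (orange) a Pdgfra UMI, with 1 symbol for each mouse and a line at the mean over mice. The contractile genes on the left are higher in the cells without Pdgfra in every mouse, and Tgfbi, Wnt5a, Agt, Ltbp2 and Cd34 on the right are higher in the cells with it.

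Cells were also divided by vessel-wall and airway-wall genes. More UMIs of Notch3, Heyl and Gja4 than of Hhip and Lgr6 were found in 82 cells (31, 19 and 32 in mice 2, 3 and 4), fewer in 22 (8, 6 and 8), and equal sums in 31 (10, 6 and 15). Hhip itself was found in 7 of the 135 cells, so the smaller side rested mostly on Lgr6, which did not mark it alone: an Lgr6 UMI was found in 65.5% ± 2.29 (SD, n = 3) of Notch3-side cells, against 53.8% ± 1.87 of the whole pool and 0.062% ± 0.107 of immune cells. Hhip was at 17.8, 88.8 and 49.7 CPM on the smaller side, below the 285, 228 and 227 of the other collagen-positive cells, and at 0 on the Notch3 side, so the name Hhip side stands only for the larger sum. Because the sums of the smaller side held fewer than 10 cells in each mouse, no test was made and levels are given. Jag1, a Notch ligand, was at 103, 189 and 223 CPM on the Notch3 side and 53.5, 38 and 39.7 on the other, and Olfr558, an olfactory receptor gene known from vascular smooth muscle, at 109, 88.4 and 47.8 against 0 in every mouse. The potassium channel gene Kcna5 was at 71.8, 88.4 and 77.4 against 8.91, 12.7 and 0. Actg2, the enteric actin, was at 724, 816 and 1059 on the Notch3 side and 508, 393 and 566 on the other. A Pdgfra UMI was found in 11 of the 82 Notch3-side cells, 14 of the 22 Hhip-side cells and 28 of the 31 cells on neither side.

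Of the cells that the Aspn limit kept out, some met the Myh11 and Acta2 minimum. The 188 Aspn-high cells (61, 57 and 70 in mice 2, 3 and 4) that met the Myh11 and Acta2 minimum, and the limits on the other genes, had Acta2 at 9873, 7987 and 8138 CPM, against 7373, 8515 and 8422 in the Myh11/Acta2 cells. Summed over these cells, Hhip was at 461, 506 and 308, against 3.56, 17.6 and 6.63 in the Myh11/Acta2 cells, and Notch3 was at 265, 444 and 366, against 221, 254 and 178. Chrm2, a muscarinic acetylcholine receptor gene, was at 162, 33.4 and 52.4 against 10.7, 5.03 and 5.31. Pdgfra was lower in the 188 cells, at 101, 147 and 87.4 against 346, 692 and 527. The 9 myofibroblast markers beside Aspn summed to 2150 ± 198 CPM there, against 2895 ± 60.9 in the Myh11/Acta2 cells. This set too was chosen after the values were seen, and its values are given without a test.

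The Myh11/Acta2 cells were then set against the 1384 other filtered cells with at least 5 UMIs of Col1a1 and Col1a2 together, which are the fibroblasts, myofibroblasts and other collagen-making cells of these lungs. Counts were summed for each mouse and group and tested with edgeR's quasi-likelihood test. Of 11552 genes tested outside the 8 rule genes and the 2 collagen genes, 650 were higher in the Myh11/Acta2 cells (5.63%) and 869 lower (7.52%), at an adjusted p under 0.05. The 3 mice were the replicates, and groups from the same mouse share an animal and a library. The comparison group held 676 Aspn-high cells, 68 pericyte-gated cells and 134 cells with UMIs of Ptprc, Cdh5 or Epcam, which the rule kept out of the pool.

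Genes of the contractile apparatus were higher in the Myh11/Acta2 cells: 25 of the 29 tested members of the list, beside 5.63% of all genes, and none was lower. Their median log2 fold change was 1.10, against -0.002 over all genes tested. Since Myh11 and Acta2 chose the cells, genes whose RNA goes with theirs from cell to cell had to follow in part, and the count is a description of how far the choice reached. Tagln stood at 3762, 3997 and 3557 CPM in mice 2, 3 and 4, against 1544, 1359.9 and 1264 in the other collagen-positive cells (log2 fold change 1.49 ± 0.09 SE, edgeR adjusted p = 3.89e-06). Lmod1 stood at 533, 496 and 492 against 167, 149 and 120.0 (1.85 ± 0.13, edgeR adjusted p = 6.5e-06). The values of neither gene overlapped between groups. Cnn1 was at 317, 425 and 391 against 162, 98.3 and 86.8 (1.75 ± 0.22, edgeR adjusted p = 0.000367), and Actg2 at 551, 579 and 795 against 304, 221 and 219 (1.43 ± 0.17, edgeR adjusted p = 0.000199). Myl9, the regulatory light chain of smooth muscle myosin, was at 1769.8, 1844 and 1976 against 724, 649 and 557 (1.59 ± 0.10), and Dmd, which encodes dystrophin, at 301, 365 and 333 against 133, 122 and 117 (1.47 ± 0.10), both without overlap. Among the members that did not pass the test were Synm, Pdlim3 and Mustn1, with log2 fold changes from -0.15 to 0.36. Des, which encodes the intermediate filament desmin, passed with all mice (0.59 ± 0.15, edgeR adjusted p = 0.0289) but not without mouse 3 (0.16) or mouse 4 (0.096).

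**Figure D4:**
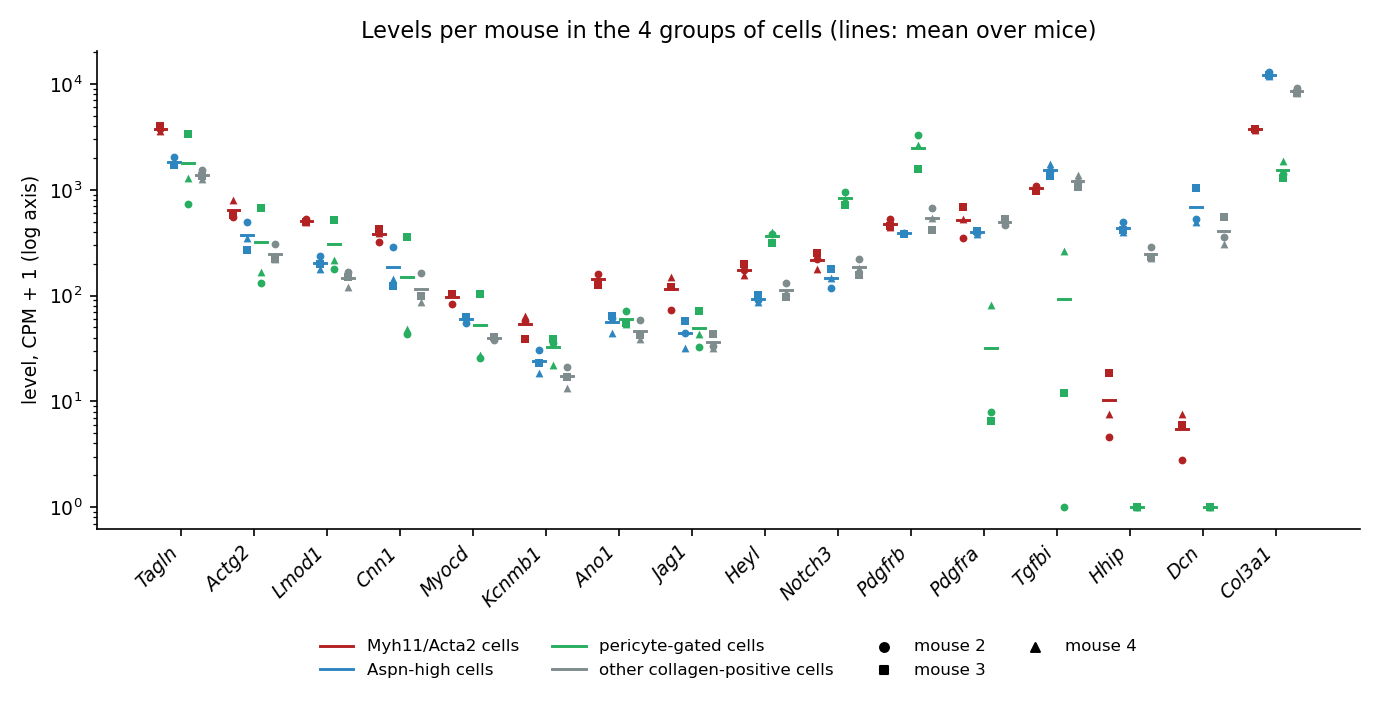
Levels of 16 genes (y axis, CPM plus 1, log axis) in the Myh11/Acta2 cells (red), Aspn-high cells (blue), pericyte-gated cells (green) and other collagen-positive cells (grey), with 1 symbol for each mouse and a line at the mean over mice. The red symbols of Tagln, Lmod1 and Cnn1 lie above the blue and grey ones in every mouse, and in the pericyte-gated cells mouse 3 (square) stands above the other mice in Tagln, Actg2, Cnn1 and Myocd.

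The CArG box (CC, then 6 bases of A or T, then GG, a form that reads alike on both strands) was searched for in RefSeq windows from 250 bases before to 50 after each gene's start. Of the 31 contractile genes 26 have a window, and Myh11, Tagln and Actg2 are among those without. A box was found in 5 of these 26 genes (19.2%), namely Dmd, Filip1l, Myl6, Myl9 and Vcl, and in 488 of all 27025 genes with a window (1.81%). All 5 were among the genes higher in the Myh11/Acta2 cells, as were 25 of the 29 tested members of the list, so this says nothing about the box. The 250 bases before the start of 3 of them (GRCm38.p6, plus strand) are shown with the box in capitals, as examples of the motif in genes of the list: Myl9 at chr2:156775214-156775463, Vcl, which encodes the adhesion protein vinculin, at chr14:20929148-20929397, and Dmd at chrX:82948620-82948869. The boxes begin 161, 227 and 98 bases before the start.
Myl9: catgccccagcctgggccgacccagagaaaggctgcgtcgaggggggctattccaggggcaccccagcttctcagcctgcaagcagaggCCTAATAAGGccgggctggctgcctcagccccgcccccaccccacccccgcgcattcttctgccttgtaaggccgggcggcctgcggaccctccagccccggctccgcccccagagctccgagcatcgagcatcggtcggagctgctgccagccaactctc
Vcl: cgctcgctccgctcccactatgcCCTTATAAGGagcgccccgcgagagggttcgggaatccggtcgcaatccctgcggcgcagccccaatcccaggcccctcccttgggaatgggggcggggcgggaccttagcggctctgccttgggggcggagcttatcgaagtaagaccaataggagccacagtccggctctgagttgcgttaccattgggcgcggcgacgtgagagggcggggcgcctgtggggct
Dmd: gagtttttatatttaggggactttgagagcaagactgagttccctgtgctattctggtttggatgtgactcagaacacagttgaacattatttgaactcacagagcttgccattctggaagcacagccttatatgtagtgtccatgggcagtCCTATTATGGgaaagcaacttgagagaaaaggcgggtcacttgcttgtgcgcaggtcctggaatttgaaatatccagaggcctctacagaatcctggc
A match of letters is no evidence of binding, and a gene without one has only none of these letters in its window.

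Of the regulators of these genes, 5 of 13 tested were higher (Gata6, Mef2c, Mef2d, Myocd and Prrx1), beside 5.63% of all genes, and Klf4, a factor that opposes them, was lower. A single lower gene of 13 is near the 7.52% of all genes that were lower. Myocd, the gene of myocardin, stood at 82, 103 and 105 CPM against 37.1, 40.0 and 39.6 (1.37 ± 0.13, edgeR adjusted p = 5.9e-05), and Gata6 at 175, 191 and 202 against 73.1, 71.2 and 59.8 (1.53 ± 0.12, edgeR adjusted p = 1.4e-05). No value of either gene overlapped between the groups. Klf4 stood at 12.5, 10.1 and 33.2 against 58.7, 75.8 and 56.1 (-1.56 ± 0.31, edgeR adjusted p = 0.00633, and 0.069 without mouse 2). Prrx1 values overlapped, at 168, 194 and 110.1 against 98.9, 111 and 103, and its call was lost without mouse 2 (0.24) or mouse 3 (0.13). In cells with no Aspn UMI the log2 fold change of Prrx1 turned to -0.095 and did not pass. Srf, the gene of serum response factor itself, did not pass the test (0.42 ± 0.18).

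Calcium and ion channel genes were the other large group, with 13 of 24 tested higher, beside 5.63% of all genes, and 2 lower, near the 7.52% of all genes. Kcnmb1, the subunit that makes the large calcium-activated potassium channel sensitive to calcium, stood at 57, 37.7 and 63.7 CPM against 19.9, 16.2 and 12.5 (1.81 ± 0.25, edgeR adjusted p = 0.000653). Kcna5 and its partner subunit Kcnab1 were at 44.6, 55.3 and 45.1 and 76.6, 50.3 and 71.6, against 11.5, 14.1 and 12 and 12.6, 14.3 and 7.19. The log2 fold changes were 1.98 ± 0.19 and 2.63 ± 0.28, and no values overlapped. Ano1, a calcium-activated chloride channel, was at 160.4, 126 and 137 against 57.7, 41.3 and 38 (1.69 ± 0.19), and Ryr2, a calcium release channel, at 37.4, 30.2 and 34.5 against 12.2, 12.6 and 10.7 (1.59 ± 0.21). Trpc6, a cation channel, was lower, at 3.56, 5.03 and 1.33 against 30.6, 18.6 and 28.4 (-3.08 ± 0.50), and is among the pericyte genes described further on. The gene of the main voltage-gated calcium channel, Cacna1c, did not pass (0.32 ± 0.17).

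Among receptors and cyclic nucleotide genes 5 of 27 tested were higher and 10 lower, beside 5.63% and 7.52% of all genes. Ramp1, a partner of the calcitonin gene-related peptide receptor, stood at 371, 299 and 377 CPM against 119, 111 and 99.2 (1.73 ± 0.12, edgeR adjusted p = 6.21e-06). P2rx1, an ATP-gated channel, was at 28.5, 88 and 46.4 against 11.5, 21.9 and 13.9 (1.76 ± 0.36, edgeR adjusted p = 0.00741, and 0.07 without mouse 4). Tbxa2r, the thromboxane receptor, was at 30.3, 47.8 and 37.1 against 23.1, 21.2 and 23.8 (0.78 ± 0.19), a call lost without mouse 3 or mouse 4 (edgeR adjusted p = 0.14 for each). The endothelin receptor Ednra was lower, at 127, 123 and 70.3 against 175, 158 and 167, and its call was lost without mouse 2 (0.06) or mouse 4 (0.18). Rgs5, a regulator of G protein signaling found in pericytes, was at 65.9, 30.2 and 35.8 against 147, 129 and 121 (-1.52 ± 0.21).

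Of 12 Notch genes tested, Jag1, Heyl and Hey2 were higher, beside 5.63% of all genes, and Notch1 was lower, which is near the 7.52% of all genes. Jag1 (chr2:137081456-137116644) stood at 71.3, 121 and 149 CPM against 32.7, 42 and 30.7 (1.77 ± 0.23, edgeR adjusted p = 0.000395), without overlap. Hey2 and Heyl, transcription factors that Notch switches on, were at 49.9, 83 and 62.4 and 175, 196 and 155, against 23.1, 30.1 and 23.2 and 132, 95.5 and 107. Their log2 fold changes were 1.38 ± 0.20 and 0.69 ± 0.15, and the call of Heyl was lost without mouse 3 (0.072) or mouse 4 (0.059). Notch3 was at 221, 254 and 178 against 221, 155 and 181 and did not pass the test (0.25 ± 0.16, edgeR adjusted p = 0.401). Of 11 Hedgehog genes tested, none was higher and Boc, Gas1 and Hhip were lower, with Hhip at 3.56, 17.6 and 6.63 against 285, 228 and 227 (-4.85 ± 0.29, edgeR adjusted p = 3.79e-06).

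The matrix genes moved apart. Of 16 interstitial matrix genes tested, 12 were lower and none was higher, beside 7.52% and 5.63% of all genes. Col3a1, the gene of type III collagen, stood at 3729, 3751 and 3712 CPM against 9159, 8279 and 8202 (-1.15 ± 0.07, edgeR adjusted p = 5.94e-06), and Dcn, the proteoglycan decorin, at 1.78, 5.03 and 6.63 against 356, 552 and 306 (-6.37 ± 0.44). Collagen genes chose the comparison group, and 133 of the 135 Myh11/Acta2 cells met the same collagen minimum. The part of this choice in the matrix genes was not tested. Of 29 genes of elastic fibers and basement membranes, 8 were higher and 10 lower, beside the same shares of all genes. Itga8 was at 675, 722 and 904 against 260.1, 348 and 235 (1.51 ± 0.15), and Ltbp1, which holds latent TGF-β in the matrix, at 182, 169 and 202 against 69.6, 93.5 and 67.6 (1.33 ± 0.15), both without overlap. Mfap4, a microfibril protein, was lower, at 674, 392 and 565 against 3199.6, 4357 and 2750.0 (-2.59 ± 0.20), and Eln did not pass the test (0.21 ± 0.09, edgeR adjusted p = 0.174).

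The genes with the largest fold changes, among those at 50 CPM or more in the higher group and moving alike in all mice, were mostly not contractile genes. Grp, which encodes gastrin-releasing peptide, stood at 225, 382 and 269 CPM against 35.1, 40.0 and 28.3 (3.11 ± 0.18, edgeR adjusted p = 3.79e-06). Itih4, an inter-alpha-trypsin inhibitor chain, was at 365, 584 and 336 against 67.5, 84 and 49.5 (2.70 ± 0.22). Sost and Sfrp2, both secreted inhibitors of Wnt signaling, were at 135, 101 and 191 and 353, 191 and 418, against 23.6, 24 and 26.5 and 56.1, 74.5 and 42.2 (2.63 ± 0.19 and 2.58 ± 0.26). The transcription factor Foxc1 was at 125, 148 and 139 against 29.4, 39 and 23.3 (2.22 ± 0.19), and the cadherin Cdh13 at 148, 247 and 267 against 52.4, 55.6 and 37.1 (2.25 ± 0.21). Kcnab1, Plin4, Mylk4, Nrgn, Smoc1 and Scube3 complete these 12 genes, with log2 fold changes from 2.21 to 2.63. All of them stood higher, by their mean over mice, in the Myh11/Acta2 cells without Pdgfra than in those with it, for example Grp at 367, 587 and 447 against 58, 0 and 60.6 and Itih4 at 599, 897 and 555 against 92.8, 0 and 77.9.

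Of the 8 genes that fell most among those at 50 CPM or more in the comparison group, 5 had no UMI in any Myh11/Acta2 cell: Ces1d, Ptprb, Slc38a5, Cytl1 and Col11a1. Against a floor of 3 UMIs over the whole group, Ces1d, a carboxylesterase, was at least 63.3-fold lower, and Col11a1, a cartilage collagen, at least 36-fold lower. Ptprb is an endothelial phosphatase, and the rule kept cells with the endothelial gene Cdh5 out of the pool but not out of the comparison group. Inmt, a methyltransferase gene, was at 0, 0 and 2.65 CPM against 196, 328 and 193, and Col2a1 and Cpm had 1 positive mouse each.

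**Figure D5:**
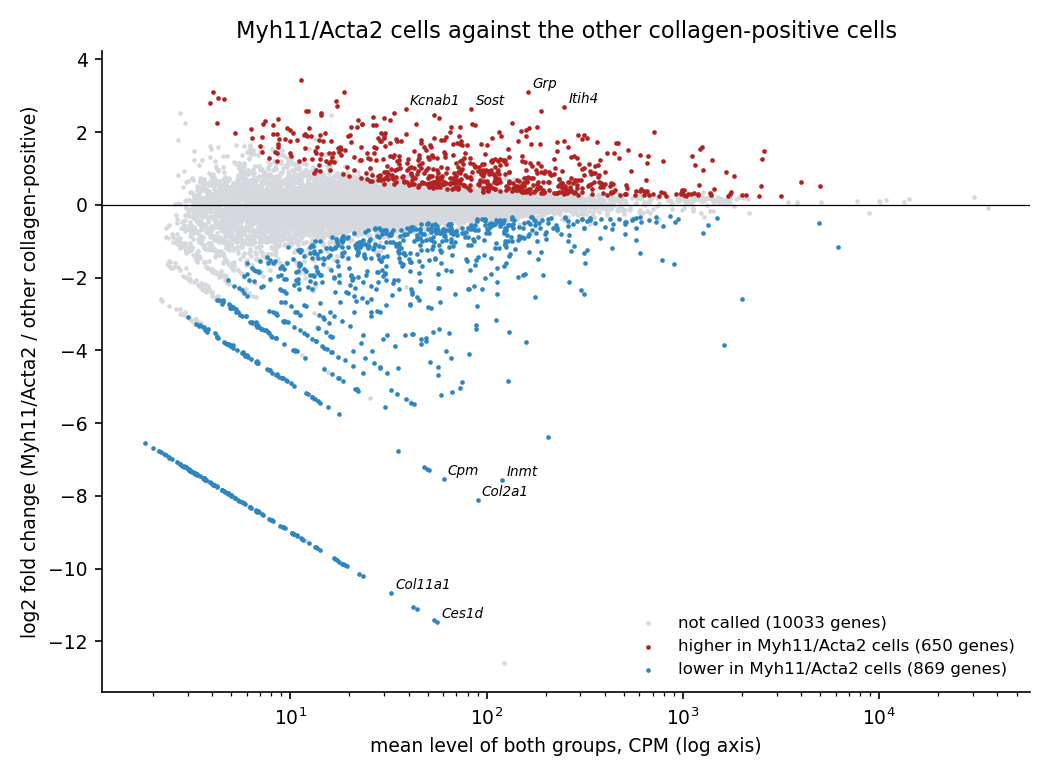
Log2 fold change between the Myh11/Acta2 cells and the other collagen-positive cells (y axis) against the mean level of both groups in CPM (x axis, log), for the 11552 genes tested, with 650 higher in red, 869 lower in blue and the rest in grey. Grp, Itih4 and Sost lie near the top, and the lowest diagonal band holds genes with 0 UMIs in the Myh11/Acta2 cells, whose fitted fold change is no bound.

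Markers of other cell types were checked as whole lists. The 7 endothelial markers beside Cdh5 summed to 60.6, 55.3 and 67.7 CPM in the Myh11/Acta2 cells, against 288, 442 and 665 in the comparison group. The 7 epithelial markers beside Epcam summed to 315, 194 and 342 against 3310, 2784 and 3717, mostly Sftpc, which stood at 235, 133 and 218 in the Myh11/Acta2 cells and 219, 109.6 and 265 in Aspn-high cells. The 7 immune markers beside Ptprc summed to 24.95, 20.1 and 34.5 against 315, 365 and 230.1. All 5 mesothelial markers were at 0 in the Myh11/Acta2 cells. The 5 glia and neuron markers summed to 12.5, 2.52 and 13.3 against 368, 567 and 66.5 in the comparison group. For the 5 cartilage markers the sums were 3.56, 2.52 and 1.33 against 224, 478 and 155. The 8 heart muscle markers summed to 818, 1099 and 949 against 574, 382 and 398. Most of this was Actc1, an actin gene that smooth muscle also uses, at 727, 1049 and 913 in the Myh11/Acta2 cells. Myh6 and Nppa were at 0 there in every mouse, and the other members were detected and make up the rest of the sum. The 9 Col13a1-type fibroblast markers were all lower in the Myh11/Acta2 cells, and 7 of 9 Col14a1-type ones, beside 7.52% of all genes. None of 8 genes of dividing cells passed the test, and of 10 immediate early and heat shock genes, which dissociation can raise, Egr1, Hspa1a and Jun were higher, beside 5.63% of all genes. Their part in the other results was not tested. When cells with Ptprc, Cdh5 or Epcam were left out of the comparison group, 635 genes were higher and 716 lower, and 23 of 29 contractile genes passed.

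Aspn-high cells, which have at least 3 Aspn UMIs and meet the limits on pericyte, immune, endothelial and epithelial genes, numbered 680 (245, 173 and 262 in mice 2, 3 and 4). Of 10124 genes tested, 571 were higher in the Myh11/Acta2 cells (5.64%) and 572 lower (5.65%). The contractile list had 23 of 29 genes higher and Mustn1 lower, with Tagln at 3762, 3997 and 3557 CPM against 2029, 1707 and 1792 (1.03 ± 0.09, edgeR adjusted p = 1.23e-06). No Myh11 or Acta2 minimum was set for the Aspn-high cells, of which 188 met it, so the contractile genes are not independent of how the groups were chosen. The 31 contractile genes, Myh11 and Acta2 included, summed to 43006 ± 5427 CPM in those 188 cells. The sum was 37794 ± 1329 in the Myh11/Acta2 cells and 20338 ± 1652 in all Aspn-high cells. Of 13 vessel-wall genes tested 11 were higher, among them Jag1 (1.42 ± 0.24), the potassium channel Kcnk3 (0.73 ± 0.12) and Notch3 (0.55 ± 0.15). Kcnk3 was at 315, 397 and 279 against 197, 215 and 176, without overlap. Notch3 values overlapped, at 221, 254 and 178 against 117, 178 and 145, and its call was lost without mouse 2 (edgeR adjusted p = 0.27). Summed over the 15 vessel-wall genes, the 188 cells that met the minimum stood at 2721 ± 334 CPM. The sum was 2386 ± 241 in the Myh11/Acta2 cells and 1517 ± 169 in all Aspn-high cells. Of 2 endothelial markers tested, Pecam1 was higher in the Myh11/Acta2 cells. The 7 endothelial markers beside Cdh5 summed to 60.6, 55.3 and 67.7 against 55.5, 59.2 and 48.0.

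Hhip was lower, at 3.56, 17.6 and 6.63 CPM against 499, 416 and 401 (-5.73 ± 0.25, edgeR adjusted p = 1.86e-09). Of 8 airway-wall genes tested, Hhip, Wnt5a and Chrm2 were lower, Actg2 and Foxf1 were higher and 3 did not pass, beside 5.65% of all genes lower and 5.64% higher. Wnt5a was at 239, 284 and 249 against 668, 699.6 and 843 (-1.52 ± 0.11), Dcn at 1.78, 5.03 and 6.63 against 529.9, 1034 and 491 (-7.16 ± 0.47) and Col3a1 at 3729, 3751 and 3712 against 12853, 12088 and 11931 (-1.72 ± 0.07). None of these values overlapped. Chrm2 was at 10.7, 5.03 and 5.31 against 71.6, 20.2 and 24.7, a call lost without mouse 4 (edgeR adjusted p = 0.082). Gap43, a growth-associated protein of neurons that was also present in pericyte-gated cells, had the highest fold change of the named genes, at 44.6, 67.9 and 53.1 against 5.24, 3.21 and 4.17 (3.64 ± 0.27, edgeR adjusted p = 4.53e-07). All of its UMIs in the pool came from cells with Pdgfra, where it stood at 96.6, 195 and 115. Ccnd1, the gene of cyclin D1, was at 125, 60.4 and 130.0 against 16.4, 28.9 and 29.2 (2.16 ± 0.25), also from cells with Pdgfra (267, 173 and 279.8, against 3.31, 0 and 2.46 without), and in Notch3-side cells alone its fold change was -0.32 and did not pass. Ncam1, a neural cell adhesion molecule, was at 182, 106 and 255 against 47.1, 58.3 and 24.7 (2.15 ± 0.28).

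Pericytes are the other mural cell, wrapped around capillaries. The 99 pericyte-gated cells (49, 19 and 31) had at least 3 UMIs of Higd1b and Cox4i2 together, and their median depth was 6881 UMIs. Of 5847 genes tested, 424 were higher in the Myh11/Acta2 cells (7.25%) and 624 lower (10.7%). Pericyte markers other than the gate's were lower in 6 of 8 cases and higher in 0. Higd1b and Cox4i2 had a maximum in the rule of the pool and a minimum in this gate. Genes whose RNA goes with theirs from cell to cell had to follow in part. The count is therefore a description, as are the values of genes such as Pdgfrb, Notch3 and Trpc6 below. Of 17 receptors and cyclic nucleotide genes tested, 10 were lower and 3 (Ednrb, Ramp1 and Rgs2) were higher. The vessel-wall list ran the other way from the comparison with Aspn-high cells, with 10 of 14 tested lower, Kcnk3 and Notch3 among them, and Jag1 alone higher (median log2 fold change -1.44). Of 10 Notch genes tested 5 were lower (Heyl, Notch1, Notch2, Notch3 and Nrarp) and Jag1 was higher. Pdgfrb, the receptor that recruits pericytes, stood at 524, 453 and 442 CPM against 3264, 1581 and 2624 (-2.41 ± 0.24, edgeR adjusted p = 4.41e-06), and Notch3 at 221, 254 and 178 against 947, 719 and 818 (-1.96 ± 0.20, edgeR adjusted p = 4.73e-06). The groups did not overlap in either gene. Gucy1a3, a subunit of the nitric oxide receptor guanylate cyclase, was at 659, 621 and 630.2 against 4798, 2769 and 4685 (-2.69 ± 0.22), and Pde5a at 905, 752 and 946 against 3683, 2327 and 3634 (-1.90 ± 0.21). Trpc6 was at 3.56, 5.03 and 1.33 against 402, 251 and 382 (-6.76 ± 0.36), the adenylate cyclase Adcy8 had no UMI in the Myh11/Acta2 cells and was at least 195-fold lower, and Mapt, the gene of tau, was at 0, 5.03 and 1.33 against 678, 256 and 473.

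Fewer contractile genes passed against pericyte-gated cells: 7 of 27 tested were higher and Ppp1r14a lower, beside 7.25% and 10.7% of all genes. The median log2 fold change of the list was 0.73, against 0.79 in the comparison with Aspn-high cells, and the difference between the comparisons was not tested. Tagln was at 3762, 3997 and 3557 CPM against 741, 3368 and 1280.2 and did not pass (1.05 ± 0.38, edgeR adjusted p = 0.0711). Mouse 3 stood apart among pericyte-gated cells. Its 19 pericyte-gated cells included 4 that also met the Myh11 and Acta2 minimum, and these 4 held 98.7% of the group's Acta2 UMIs in that mouse, while 3 of 49 cells held 83.5% in mouse 2 and 5 of 31 held 81.3% in mouse 4. Over all mice, 12 of the 99 cells met that minimum and held 92.2% of the Acta2 UMIs. Without mouse 3, 20 of 27 contractile genes were higher, and 693 genes were higher and 753 lower of 6852 in all. Without mouse 2 or mouse 4, 2 of 26 and 1 of 27 contractile genes were higher, beside 139 of 5465 and 154 of 6024 genes in all. Among those higher with all mice, Dmd stood at 301, 365 and 333 against 168, 191 and 170.0 (0.90 ± 0.19, edgeR adjusted p = 0.0028, and 0.075 without mouse 4).

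Myofibroblast markers were higher in 6 of 7 cases and Enpp2 was lower, beside 7.25% and 10.7% of all genes, with Pdgfra at 346, 692 and 527 CPM against 6.99, 5.45 and 79.7 (4.19 ± 0.50, edgeR adjusted p = 2.25e-05) and Tgfbi at 1089, 963 and 1040.2 against 0, 10.9 and 266 (3.60 ± 0.68, edgeR adjusted p = 0.00138, and 0.25 with DESeq2). With Notch3-side cells alone, neither passed (edgeR adjusted p = 0.32 and 0.29), and 18 of 27 contractile genes and 1 of 7 myofibroblast markers were higher, beside 510 of 4756 genes in all. Eln was at 34056, 31154 and 30499 against 9131, 19763 and 10417 (1.26 ± 0.25, edgeR adjusted p = 0.00191, and 0.14 without mouse 4), and Jag1 at 71.3, 121 and 149 against 31.4, 70.9 and 42.5 (1.30 ± 0.36, edgeR adjusted p = 0.0191, and 0.24 without mouse 4). Groups did not overlap in Eln or Jag1. Over the same groups Jag1 was thus high and Notch3 low in the Myh11/Acta2 cells relative to pericyte-gated cells, while against Aspn-high cells both were higher. The comparisons share the Myh11/Acta2 cells, so they are not independent of each other.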

How the data were processed

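Lungs of 3 mice were measured by 10x 3' scRNA-Seq, 1 library each, and the authors deposited UMI counts for every gene in each cell, made with Cell Ranger 3.0.2 against mm10 per the labels. Whether counting used strand is not given in the sources used here. Cells under 200 genes or over 20% mitochondrial UMIs were left out before the rule was applied. Counts of each mouse and cell group were summed (397515 to 753730 UMIs in the Myh11/Acta2 cells) and tested with edgeR 4.0.16 (quasi-likelihood, TMM, filterByExpr, Benjamini-Hochberg over all genes, threshold 0.05) in R 4.3.3. P-values measure the spread between 3 animals. Groups came from the same animals, so mouse as a block was an alternative (correlations of deviations 0.207 to 0.542, and 0.0781 to 0.150 against pericyte-gated cells). Other alternatives were DESeq2 1.42.0, other gates and filters, and leaving out each mouse. Doublets were marked with scanpy 1.11.5. Named genes were list members and those with the largest fold changes at 50 CPM or more, in 1 direction in all mice, passing over unnamed, ribosomal and mitochondrial genes. The members and lists were chosen with earlier results of these data known. The fits were tested on simulated data. Values of 1 list member are not reported here.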

Additional observations from a re-analysis of the deposited data

How the results depend on the processing

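A higher Myh11 and Acta2 minimum (10 and 20 UMIs) left 88 cells (1.16% of filtered cells), no Aspn UMI left 80 (1.05%), and a lower minimum (3 and 5) gave a share of 2.51%, against 135 cells and 1.77%. Without 1 mouse the share was 1.62% to 2.06%. Against the other collagen-positive cells the higher minimum gave 1031 higher genes and no Aspn UMI gave 322 higher and 502 lower, in place of 650 and 869. Leaving out 1 mouse gave 348 to 468 higher and 441 to 658 lower. Against Aspn-high cells (571 higher, 572 lower) the higher minimum gave 949 and 897, no Aspn UMI 330 and 362, Notch3-side cells alone 863 higher, and no filter on low counts 882 lower. Leaving out 1 mouse gave 283 to 441 higher and 327 to 476 lower. Against pericyte-gated cells (424 higher, 624 lower) DESeq2 gave 269 higher, at most 10% mitochondrial UMIs 265, no Aspn UMI 271 and no filter on low counts 752. Leaving out 1 mouse gave 139 to 693 higher and 338 to 753 lower. The log2 fold change of Prrx1 against the other collagen-positive cells was -0.095 with no Aspn UMI, and that of Ccnd1 against Aspn-high cells was -0.32 in Notch3-side cells. The cause of these changes was not tested. With mouse as a replicate block 732 and 1006, 638 and 639, and 409 and 582 genes were higher and lower in the 3 comparisons, none over 1.5 times from the unblocked counts. Direction was kept in 984 of 985, 347 of 348 and 379 of 379 refits of named genes, and the call in 939, 333 and 356. Notch3-side cells alone, and comparison cells without Ptprc, Cdh5 or Epcam, were chosen after seeing the data. The test between the Notch3 and Hhip sides and its alternatives were not run, because the Hhip side held 8, 6 and 8 cells. Depth limits genes under a few UMIs in the pool, where 3 counts equal 1.75 CPM.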

Other observations

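Genes of dividing cells, summed over 8 genes, stood at 33.9, 20.1 and 217.6 CPM in the Myh11/Acta2 cells of mice 2, 3 and 4, and at 88.8, 199.4 and 124.8 CPM in the other collagen-positive cells, with mouse 4 high in the first group and mouse 3 in the second. In mouse 4 the 8 Hhip-side cells stood at 1490.4 CPM, against 22.8 on the Notch3 side and 18.7 on neither side, so that few cells carried the value. A further 2 cells met the gene thresholds but had been left out by the filter on cells.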
